A study of Arachis hypogaea with 3 samples.

Results

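The phenylpropanoid and lignin pathway was followed through 3 stages of gynophore growth in peanut (Arachis hypogaea); the gynophore is the stalk on which the fertilized ovary enters the soil. Its members are the reference sequences whose best protein database hit names phenylalanine ammonia-lyase, a coumarate, cinnamate, caffeate or ferulate enzyme, lignin, a laccase or a dirigent protein. This rule uses the annotation only and none of the measured values. It took 100 of the 83579 sequences, 58 of them assembled unigenes and 42 public peanut sequences. Of the 100 members, 95 had at least 1 read in a library and 5 had none, against 81517 sequences with a read in the whole table.

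For each stage, 1 RNA-seq library was made from gynophores of farm-grown plants of the cultivar Luhua 14. The sources give a tip cut for the protein samples and do not say which length of the gynophore the RNA came from. S1 gynophores were aerial, green or purple, and 3 to 5 cm long. S2 gynophores were white, had spent about 3 days in the soil and showed no enlarged ovary, and S3 gynophores had grown in the dark and carried pods of 2 to 3 mm. Each library is of 1 cultivar and of whole tissue, so no cell type is separated, and the number of plants behind it was not found in the labels or methods. The table counts 20734295 reads, with near equal shares from S1 (33.3%), S2 (32.2%) and S3 (34.5%). With 1 library a stage there are no replicates, and the text therefore gives neither an SD nor a p-value. Values are in RPKM, reads per kilobase of sequence and per 1000000 counted reads, and sums over several sequences in RPM, reads per 1000000 counted reads. Intervals are 95% exact intervals (Poisson for a level, Clopper-Pearson for a ratio or a share), they cover counting error only, and they compare these libraries rather than the stages.

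The phenylpropanoid pathway starts from the amino acid phenylalanine. Phenylalanine ammonia-lyase (PAL) removes its amino group, cinnamate 4-hydroxylase (C4H) adds a hydroxyl group, and 4-coumarate:CoA ligase (4CL) activates the product as p-coumaroyl-CoA, from which the lignin, flavonoid and stilbene branches depart. In the lignin branch a shikimate hydroxycinnamoyl transferase (HCT) works with a 3-hydroxylase (C3H), which modifies the ring. Cinnamoyl-CoA reductase (CCR) and cinnamyl alcohol dehydrogenase (CAD) reduce the side chain to an alcohol, and ferulate 5-hydroxylase (F5H) takes part in setting the pattern of ring groups. Laccases, secreted copper oxidases, and peroxidases then couple the alcohols into lignin in the cell wall, above all in xylem and fibres.

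The S2 library held the most reads of the pathway and the S3 library the fewest. All members together had 2987 RPM in S1 (95% interval 2947 to 3028), 4286 in S2 (4237 to 4336) and only 1706 in S3 (1675 to 1736). The sum was 1.43 times higher in S2 than in S1 (1.41 to 1.46) and 2.51 times higher in S2 than in S3. Of the 95 members with a read, 66 (69.5%) had their highest RPKM in S2, 16 in S1 and 13 in S3. Over all sequences with a read, S2 was the highest library for 25.0%, S1 for 30.2% and S3 for 44.8%. Among the 68 members with an RPKM of at least 10 in some library the counts were 9 (S1), 50 (S2) and 9 (S3), while S2 was highest for 20.2% of all sequences at that level. In such tissue, fewer cells of a type and less RNA per cell cannot be told apart.

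A limit of 2 times on RPKM + 1 was set to count members that differed between a pair of libraries, and the share of all sequences past the same limit is given beside each count. From S1 to S2, 22 of 95 members (23.2%) were at least 2 times higher in S2, against 9.03% of all sequences, and 7 members (7.37%) were at least 2 times lower, against 9.19%. From S2 to S3, 3 members (3.16%) were higher in S3, against 18.6%, and 58 (61.1%) were lower, against 11.4%. From S1 to S3, 10 members (10.5%) were higher, against 21.0%, and 31 (32.6%) were lower, against 13.9%. The difference between S2 and S3 thus took in the majority of the pathway, and that between S1 and S2 a much smaller share. The pairs share libraries, so their counts are not independent.

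The same holds where low levels are left out. With an RPKM of at least 10 in either library, 17 of 67 members were higher in S2 than in S1 (25.4%, against 8.12% of all sequences) and 4, of which 3 are laccases and 1 is the CCR sequence EZ723174, were lower (5.97%, against 10.2%). Of 64 members, 2, both 4CL, were higher in S3 than in S2 (3.12%, against 23.4%) and 48 were lower (75.0%, against 13.3%). Of 58 members, 6 were higher in S3 than in S1 (10.3%, against 25.5%) and 25 were lower (43.1%, against 17.6%). The median log2 ratio of RPKM + 1 over members with a read was 0.62 (S2 to S1), −1.37 (S3 to S2) and −0.58 (S3 to S1), beside 0.00, 0.18 and 0.16 over all sequences with a read.

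**Figure D1:**
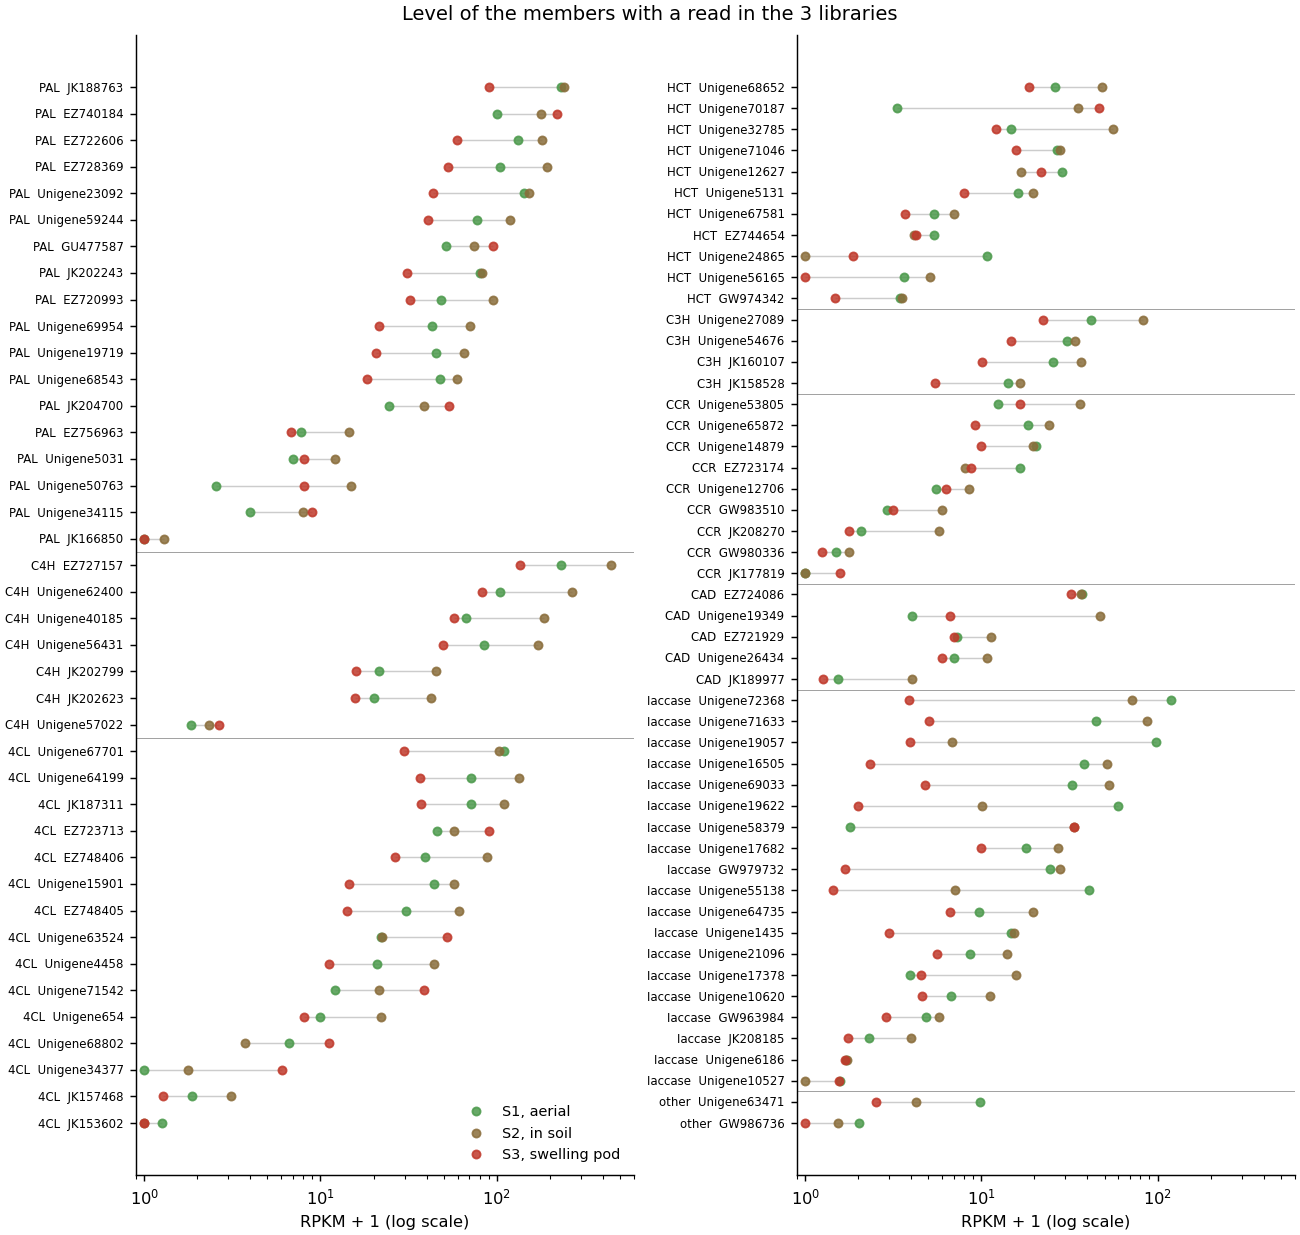
RPKM + 1 (log scale) of 90 members with a read in the S1, S2 and S3 libraries, those of the steps described here, ordered by pathway step and then by level, with 1 point per library and a grey line over the range. The S2 point lies furthest to the right for 62 members, and for 9 of the 19 laccases the S3 point lies at least 2 times below the S1 point. Of all sequences with a read, 25.0% were highest in S2 and 13.9% were that much lower in S3 than in S1.

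Several marker lists differed between the same libraries. Sequences named for photosystems, chlorophyll-binding proteins and the small subunit of Rubisco, which mark green tissue, summed to 3868 RPM in S1, 215 in S2 and 373 in S3. Of the 51 with a read, 31 had at most 0.5 times their S1 level (on RPKM + 1) in S2, against 9.19% of all sequences. At least 2 times higher in S2 were 0, and 13 had no read in S2. The sequences that mark dividing cells, histones H3 and H4 and B-type cyclins, had 1102, 1258 and 579 RPM, with 8 of 29 at least 2 times lower in S3 than in S2. Those with xylem in their name, mainly xylem serine proteinases, had 528, 437 and 206 RPM, with 3 of 6 at least 2 times lower in S3 than in S2 and none at 0. That limit from S2 to S3 was passed downward by 11.4% of all sequences. Sequences named for seed storage proteins and oleosins had 523, 508.5 and 132 RPM, of which EZ742210 held 82.7%, 81.9% and 24.4%. The name of EZ742210 covers inhibitors and lipid-transfer proteins as well as 2S albumin-like proteins, so it need not be a seed storage protein. Without it the list had 90.3, 92.3 and 99.9 RPM and was not lower in S3. The part of these differences in the values of the pathway was not tested.

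**Figure D2:**
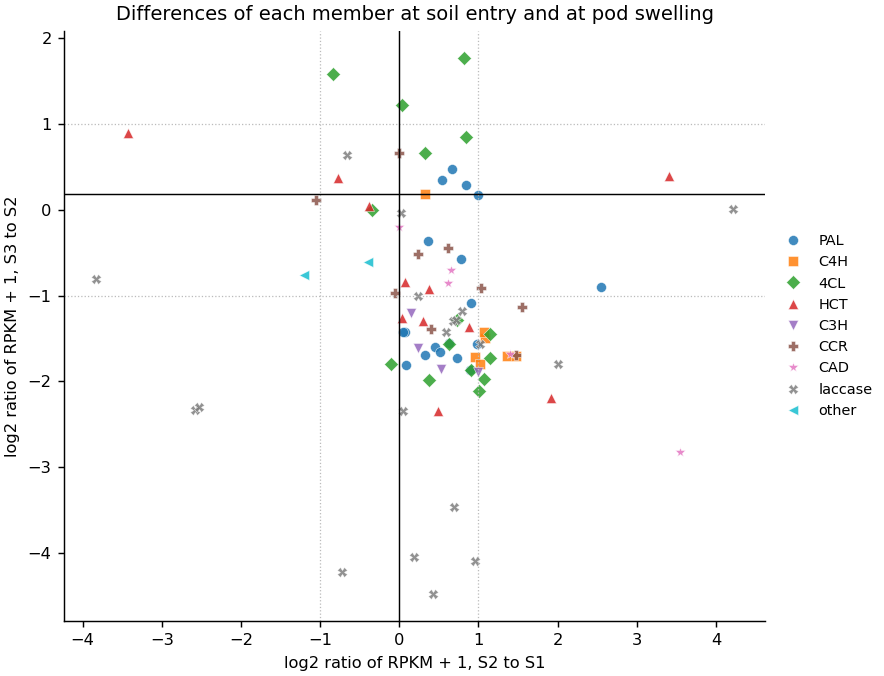
Log2 ratio of RPKM + 1 for S2 to S1 (horizontal) and for S3 to S2 (vertical) of the same 90 members, by pathway step; solid lines are the medians of all sequences with a read (0.00 and 0.18) and dotted lines the limits of 2 times. Most points lie below the lower dotted line, and laccases take the lowest places; both axes use the S2 library, so no relation between them is read from the plot.

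Sums over the members of a step add the reads that had a single place, and they are compared here between libraries and not between steps. S2 had the highest sum for PAL, C4H, 4CL, HCT, C3H, CCR and CAD, while the laccases had theirs in S1. The S2 to S3 ratio was lowest for HCT, where S2 was 1.46 times S3, and for PAL, at 1.64 times. It was 2.04 times for CCR, 2.07 times for 4CL and 2.48 times for CAD. At C4H and C3H it was 3.29 and 3.42 times, and for the laccases it reached 7.73 times. This order depends on the public sequences. With unigenes only, S2 was 3.14 times S3 for PAL (8 sequences, 2.81 to 3.52) and 7.66 times for CAD (2 sequences, 6 to 9.88). Among unigenes the laccases were at 7.63 times (16 sequences, 6.86 to 8.49), level with CAD, and HCT stayed at 1.46 times. Of the pathway's reads in S1, S2 and S3, PAL made up 26.4%, 27.7% and 42.6%, and the laccases 22.3%, 10.4% and 3.37%.

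**Figure D3:**
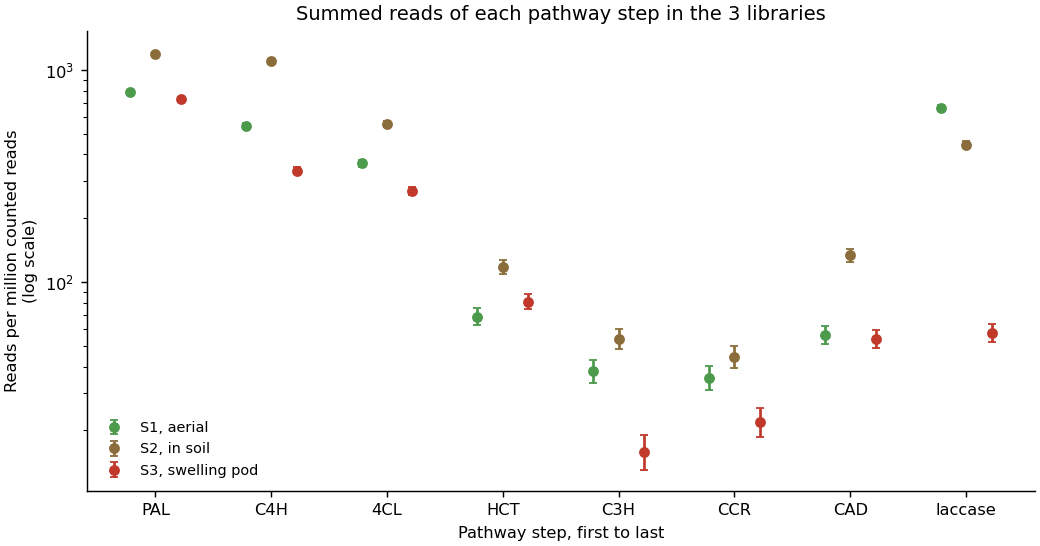
Summed reads of each pathway step in RPM (log scale) in the S1, S2 and S3 libraries, with 95% exact Poisson intervals; the single F5H sequence, which had no read, and members outside the steps described are not drawn. The S2 point is the highest at every step drawn except the laccases, whose sum was 665 (S1), 444 (S2) and 57.5 (S3).

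PAL was the step with the most members beside the laccases, 19 sequences with 12 distinct database hits, 18 of them with a read. Its sum was 788 RPM in S1, 1188 in S2 and 726.5 in S3, 1.51 times higher in S2 than in S1 (1.46 to 1.56) and 1.64 times higher in S2 than in S3. Of the 18 members, 14 were highest in S2 and 4 in S3, against 25.0% and 44.8% of all sequences with a read. Only 1, Unigene50763 with 3, 26 and 14 reads, was at least 2 times higher in S2 than in S1. This is not above the 9.03% of all sequences. At least 2 times lower in S3 than in S2 were 11 of the 18, against 11.4%.

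The 4 S3-highest PAL sequences, grouped here after their values were seen, took a growing share of the step. They held 28.0% of PAL reads in S1 (26.8 to 29.2%) and 31.5% in S2 (30.5 to 32.6%), but 64.4% in S3 (63.1 to 65.7%). The choice itself favours a larger share in S3. EZ740184 had an RPKM of 99.1 (S1), 178 (S2) and 218 (S3), so that the S3 level was 2.20 times the S1 level (2.05 to 2.38). JK204700 had 23.3, 37.8 and 52.9, a ratio of S3 to S1 of 2.27 (1.79 to 2.89). GU477587, annotated as a PAL of peanut itself and named here after its values were seen, had 50.5, 73.8 and 94.7. These 3 sequences were lowest in S1 and highest in S3, the reverse of the pathway as a whole between S2 and S3. Reads covered 72.2% of EZ740184 in S3, but only 31.6% of GU477587 and 23.3% of JK204700, so the last of these levels rest on a small stretch. A rescaling by median of ratios brought the ratio of S3 to S2 of EZ740184 from 1.23 to 1.03 and that of JK204700 from 1.40 to 1.17, both then with intervals that include 1 (0.965 to 1.09 and 0.955 to 1.44). The fourth, Unigene34115, had 4, 9 and 11 reads and was highest in S2 after either rescaling.

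The other abundant PAL sequences were lower in S3 than in S2. JK188763, with the highest mean level of the step, had an RPKM of 231 (S1), 242 (S2) and 89.1 (S3), almost level between the first stages (1.05, 0.951 to 1.16) and 2.71 times higher in S2 than in S3. Unigene23092, a fragment of 158 bases, had 143, 152 and 42.5, the largest S1 to S3 difference of the step downward at 3.36 times. EZ722606 (132, 181 and 58.9) and EZ728369 (104, 192 and 52.0), named after their values were seen, had the S2 maximum too. JK154865 had no read in any library, where 3 reads would have given an RPKM of 0.824, 0.853 and 0.796.

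C4H was a nearly uniform step. Its sum was 543 RPM in S1, 1103 in S2 and 335 in S3, 2.03 times higher in S2 than in S1 (1.95 to 2.11). Of 7 members, 6 were highest in S2, 5 were at least 2 times higher in S2 than in S1, and 6 were at least 2 times lower in S3 than in S2. For all sequences with a read these shares were 25.0%, 9.03% and 11.4%. None of the 7 passed the limit between S1 and S3, which 21.0% of all sequences passed upward and 13.9% downward. The seventh, Unigene57022, had 2, 3 and 4 reads.

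EZ727157, a sequence of 1881 bases and the longest of the pathway, held 79.7%, 76.2% and 75.8% of the C4H reads. Its RPKM was 230 (S1), 447 (S2) and 135 (S3), and its S2 level was the highest of any member in any library. Unigene62400 had 104, 267 and 81.2, so S2 was 2.58 times S1 (2.26 to 2.95) and 3.29 times S3. Unigene56431 had 84.0, 172 and 48.6. In all 3, S2 was well above both other libraries and S3 was below S1.

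4CL had 17 sequences with 8 distinct database hits, 15 of them with a read. The sum was 363.5 RPM in S1, 556.5 in S2 and 269 in S3, with S2 at 1.53 times S1 (1.46 to 1.61) and S3 at 0.484 times S2 (0.458 to 0.512). As at PAL, the members fell into those highest in S2 (8), those highest in S3 (5) and, here, 2 highest in S1 (Unigene67701, and JK153602 with a single read). Over all sequences with a read, S3 was the highest library for 44.8% and S2 for 25.0%. From S2 to S3, 9 of the 15 4CL members were at least 2 times lower, against 11.4% of all sequences. At least 2 times higher were 3 of the 15, close to the 18.6% of all sequences. These 3, Unigene63524, Unigene68802 and Unigene34377, were the only members of the whole pathway past the limit in that direction.

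The 5 S3-highest 4CL sequences, again grouped after their values were seen, held 16.2% of 4CL reads in S1 (14.7 to 17.7%) and 13.8% in S2 (12.7 to 14.9%), but 52.2% in S3 (50 to 54.5%). Here too the choice itself favours a larger share in S3. Unigene71542 had 11.0 RPKM in S1, 20.5 in S2 and 37.8 in S3, 3.43 times higher in S3 than in S1 (2.71 to 4.39). Unigene63524 had 21.0, 21.4 and 51.2, level between S1 and S2 and 2.39 times higher in S3 than in S2 (1.79 to 3.23). Both share 1 best database hit, a 4CL 2 of raspberry. Unigene68802 had 5.65, 2.72 and 10.1, the only one of these with its lowest level in S2. EZ723713, named after its values were seen, was the most abundant of the group with 44.7, 56.5 and 89.9. Unigene34377 completes the group with 0, 1 and 7 reads. The sequences highest in the other libraries were of the same order of level. Unigene64199 had 70.8, 133 and 35.7, with S2 at 1.87 times S1 (1.59 to 2.21) and 3.72 times S3. Unigene67701 had 110, 102 and 28.6, the largest difference of the step between S1 and S3 downward at 3.83 times. Its levels in S1 and S2 were within counting error of each other (ratio 0.934, 0.819 to 1.07). JK164170 and JK185652 had no read in any library.

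**Figure D4:**
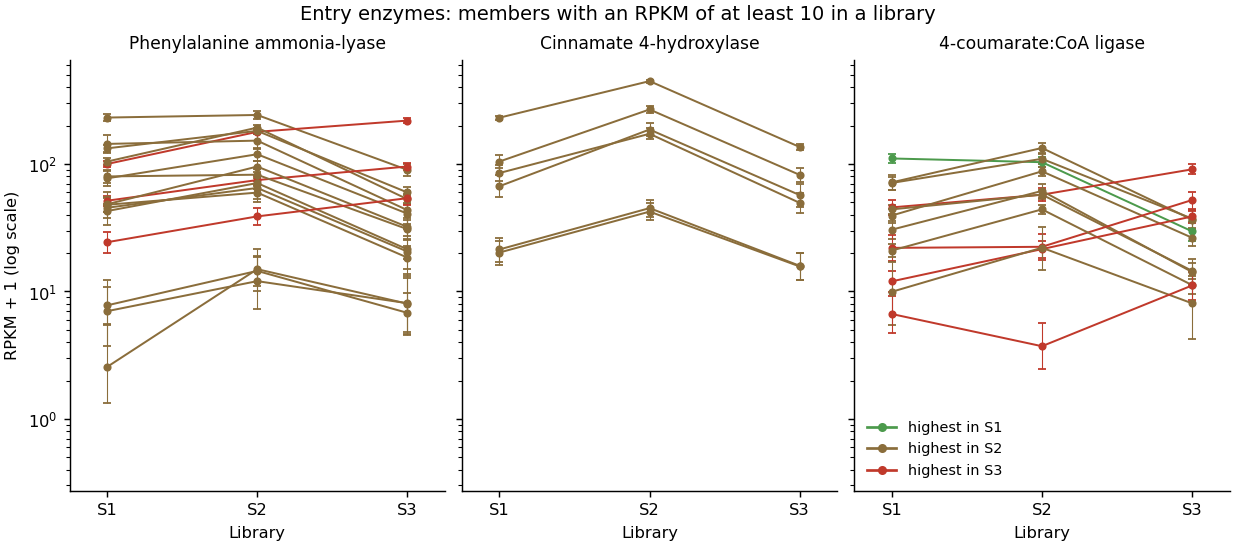
RPKM + 1 (log scale) in the S1, S2 and S3 libraries of the PAL, C4H and 4CL members with an RPKM of at least 10 in a library, 1 line per sequence coloured by the library of its highest level, with 95% exact Poisson intervals. C4H has lines that peak in S2 only, while PAL has 3 lines and 4CL has 4 that end highest in S3.

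The hydroxycinnamoyl transferases numbered 11, and their names cover more than lignin synthesis. Only 3 descriptions name a shikimate enzyme, and 8 name anthranilate, malate or unspecified hydroxycinnamoyl or benzoyl transferases, relatives that act on other acceptors. The sum was 68.7 RPM in S1, 118 in S2 and 80.9 in S3. Unigene70187, annotated as a shikimate/quinate transferase, accounted for 2.95%, 25.4% and 49.3% of these reads in S1, S2 and S3. In RPKM it was at 2.32 (S1), 34.3 (S2) and 45.7 (S3), so it was 14.8 times higher in S2 than in S1 (8.61 to 27.6) and 19.7 times higher in S3 than in S1 (11.5 to 36.4). It was low in the aerial library alone and stayed high in S3, where the other shikimate transferase of any abundance did not. That sequence, Unigene68652, had 25.2, 47.2 and 17.7, with S2 at 1.87 times S1 (1.49 to 2.35) and 2.67 times S3. Unigene5131, an anthranilate transferase by name, had 15.1, 18.7 and 6.99. At least 2 times lower in S3 than in S2 were 5 of the 11, these 2 and Unigene32785, Unigene56165 and GW974342. Of all sequences, 11.4% were that much lower and 18.6% that much higher. None of the 11 were at least 2 times higher.

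C3H had 4 members, all highest in S2 and all at least 2 times lower in S3 than in S2. Of all sequences with a read, 25.0% were highest in S2 and 11.4% were that much lower. The sum of the 4 members was 37.9, 54.1 and 15.8 RPM. Unigene27089, a fragment of 170 bases, had an RPKM of 40.9 (S1), 82.0 (S2) and 21.4 (S3). Unigene54676 had 29.5, 32.9 and 13.8, with S1 and S2 within counting error of each other (ratio 1.12, 0.783 to 1.59). JK158528 had 13.2, 15.6 and 4.42, the largest downward S1 to S3 difference of the step at 2.98 times (S3 to S1 ratio 0.335, 0.181 to 0.593). The remaining member, JK160107, had 24.4, 35.8 and 9.12.

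CCR, the entry to monolignol reduction, had 9 members at low levels. Their sum was 35.5 RPM in S1 (31.2 to 40.2), 44.5 in S2 (39.6 to 49.9) and only 21.8 in S3 (18.5 to 25.5). Unigene53805 had an RPKM of 11.4, 35.4 and 15.6, and was 3.11 times higher in S2 than in S1 (1.93 to 5.16). Unigene65872 had 17.3, 23.2 and 8.24, with counting intervals that overlap between S1 and S2 and an S2 level 2.81 times that of S3. Unigene14879 had 19.4, 18.6 and 8.96 and was highest in S1, or in S2 after rescaling by the upper quartile. A further sequence, Unigene68163, is called cinnamoyl-CoA reductase-like in the study's tables but has an unknown protein as its best hit, so it stands outside the rule. Its RPKM was 221 (S1), 178.5 (S2) and 34.3 (S3), above every CCR member in each library.

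The F5H sequence, JK158056, had no read in any library, where 3 reads would have given an RPKM of 0.819, 0.848 and 0.792.

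CAD, the last reductive step, had abundant members of unlike profile. The sum was 56.4, 134 and 54.0 RPM for S1, S2 and S3, and most of the excess in S2 came from 1 sequence. Unigene19349 had an RPKM of 3.05 (S1), 46.0 (S2) and 5.65 (S3). It was 15.1 times higher in S2 than in S1 (10.8 to 21.8) and 8.15 times higher in S2 than in S3, so it was abundant in the newly buried gynophore only. EZ724086, by contrast, had 36.3, 35.9 and 31.2, and its ratios of 0.991 for S2 to S1 (0.845 to 1.16) and 0.870 for S3 to S2 (0.738 to 1.02) did not differ from 1 beyond counting error. After rescaling by the median of ratios the latter was 0.729 (0.618 to 0.859), below 1 beyond counting error. The sequence was highest in S1 as deposited and in S2 after either rescaling. The other 3 members stayed at an RPKM of at most 10.4.

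Among the steps, the laccases had the largest ratios of summed reads from S1 to S3 and from S2 to S3. With unigenes only, their ratio of S2 to S3 (7.63) was level with that of CAD (7.66). Between S1 and S2 other steps differed more, such as CAD (S2 at 2.37 times S1) and C4H (2.03 times). The 19 sequences, all with a read, summed to 665 RPM in S1 (646 to 685), 444 in S2 (429 to 461) and only 57.5 in S3 (52.1 to 63.3), so S1 was 1.50 times S2 and 11.6 times S3. By number of sequences the order was different, since 5 had their maximum in S1, 13 in S2 and only 1 in S3. For all sequences with a read these shares were 30.2%, 25.0% and 44.8%. From S2 to S3, 15 of 19 were at least 2 times lower, against 11.4% of all sequences. None were at least 2 times higher, against 18.6%. From S1 to S2, 3 were higher (Unigene58379, Unigene17378 and Unigene64735), 3 were lower (Unigene19057, Unigene19622 and Unigene55138) and 13 passed neither limit. Of all sequences, 9.03% were that much higher and 9.19% that much lower.

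The 5 laccases highest in S1, grouped after their values were seen, gave 74.5% of laccase reads in S1 (73.2 to 75.8%), 35.4% in S2 and 21.7% in S3. The choice itself favours a larger share in S1. Unigene72368, annotated as poplar laccase 1b, had the highest level, with an RPKM of 118 (S1), 71.0 (S2) and 2.87 (S3). It was 1.67 times higher in S1 than in S2 (1.53 to 1.81) and 24.8 times higher in S2 than in S3 (17.9 to 35.3). Unigene19057 had 96.4, 5.84 and 2.91, and was 16.5 times higher in S1 than in S2 (13.0 to 21.2). Unigene19622, with poplar laccase 110b as its best hit, had 58.8, 9.03 and 0.991, with S1 at 6.51 times S2 (5.18 to 8.28). Unigene55138 had 39.9, 6.11 and 0.438, with S1 at 6.54 times S2 (3.63 to 12.8). These last 3 were high in the aerial library only, the library in which the green tissue sequences were high too, and the part of green tissue in them was not tested. The fifth of the set, Unigene10527, had 1 read in S1 and 1 in S3.

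Of the 13 laccases highest in S2, 4 were over 10 times higher there than in S3, and the other 9 were 1.07 to 7.14 times higher. The ratio of 1.07 belongs to Unigene6186, which had 1 read in each library, so its place among the 13 rests on library totals only. Unigene71633 had an RPKM of 43.9 (S1), 85.8 (S2) and 4.07 (S3), 1.96 times higher in S2 than in S1 (1.72 to 2.22) and 21.1 times higher in S2 than in S3 (15.0 to 30.5). Unigene16505, annotated as laccase 3, had 37.4, 50.9 and 1.32, and was 38.4 times higher in S2 than in S3 (18.4 to 96.5). Unigene69033, named after its values were seen, had 31.8, 52.0 and 3.79. Unigene17682, also named after its values were seen, shares its hit with Unigene19057 but had 16.9, 26.1 and 9.01, a much smaller spread. These 2 thus differed in profile despite their common hit. Unigene58379, annotated as laccase 110a, stood alone with 0.806, 32.6 and 32.7, from 2, 78 and 84 reads. S2 was 40.4 times S1 (10.8 to 339), and its S2 and S3 levels were equal within counting error, S2 being the higher after either rescaling.

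**Figure D5:**
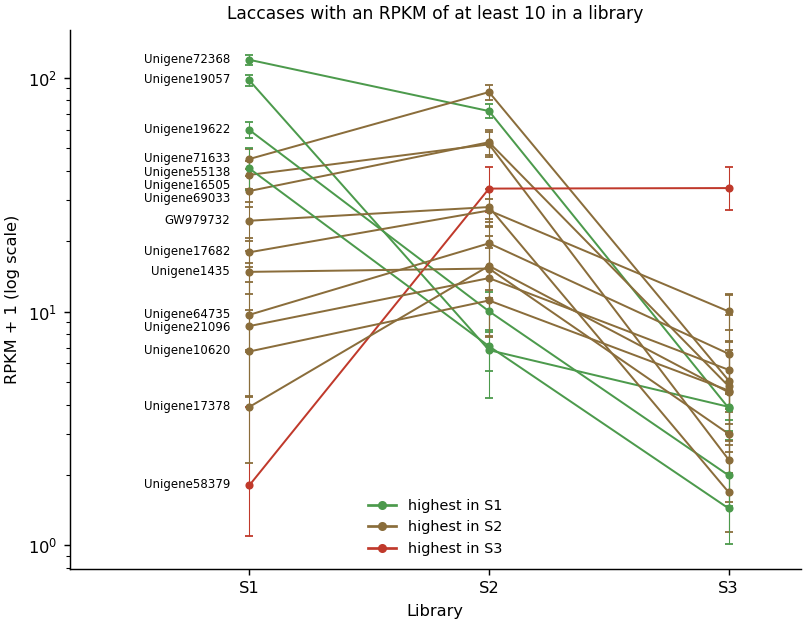
RPKM + 1 (log scale) in the S1, S2 and S3 libraries of the laccases with an RPKM of at least 10 in a library, 1 line per sequence coloured by the library of its highest level, with 95% exact Poisson intervals. Every line but that of Unigene58379 ends lowest or close to its lowest in S3, and 3 lines that start high in S1 are already low in S2.

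The 2 remaining members are a phenylcoumaran benzylic ether reductase-like sequence, from lignan metabolism, and a lignin-forming peroxidase. Unigene63471, the reductase, had an RPKM of 8.79 (S1), 3.25 (S2) and 1.52 (S3). GW986736, the peroxidase, had 2, 1 and 0 reads. No description matched a dirigent protein.

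Sequences that feed the pathway were described by lists of words, members left out. Enzymes of the shikimate route and of phenylalanine supply, which make the starting amino acid, had 1009 RPM in S1, 1274 in S2 and 640 in S3. Of the 55 with a read, 32 were highest in S2, 6 were at least 2 times higher in S2 than in S1 and 21 were at least 2 times lower in S3 than in S2. Over all sequences with a read these shares were 25.0%, 9.03% and 11.4%, so 6 of 55 is close to that of all. EZ740598, a DAHP synthase (the first enzyme of the route), had an RPKM of 188, 235 and 86.8. That is the S2-highest order of most pathway members. Enzymes of the methyl donor cycle, which serves many methyltransferases of the cell, had 7004, 5250 and 2430 RPM, highest in S1. EZ722334, a methionine synthase, alone had an RPKM of 2160, 1525 and 497. NADPH-cytochrome P450 reductase, which passes electrons to C4H and C3H, had 3 sequences with 223, 191.5 and 48.0 RPM. Its summed S2 level was thus 3.99 times its S3 level, while S1 was 1.16 times S2. Of the 3 sequences, 2 were at least 2 times lower in S3 than in S2. The other, Unigene16070, had an RPKM of 14.85, 10.42 and 17.6 and was highest in S3.

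The secondary wall word list and the flavonoid and stilbene entry enzymes followed other orders. The 16 sequences of the wall list, mostly fasciclin-like arabinogalactan proteins, had 1231, 818 and 224 RPM, and 12 were highest in S1 and 4 in S2. The names of its most abundant sequences state no wall type. Of the 16 sequences, 11 were at least 2 times lower in S3 than in S2, against 11.4% of all sequences. None were at least 2 times higher. Chalcone and stilbene synthases, which draw on p-coumaroyl-CoA for flavonoids and resveratrol, had 47 sequences and 526, 438 and 114 RPM. By number, 37 of the 47 were highest in S2 and 20 were at least 2 times higher in S2 than in S1. Over all sequences with a read these shares were 25.0% and 9.03%. By sum S1 was higher, because the abundant chalcone synthase sequences were, such as JK153418 with an RPKM of 341.5, 123 and 8.13. In S3 all of these lists had their lowest sum. Their median log2 ratios of S3 to S2 were −0.74 (phenylalanine supply), −0.77 (methyl donors), −1.85 (P450 reductase), −1.26 (secondary wall) and −0.83 (chalcone and stilbene synthases), beside 0.18 over all sequences.

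The members share features that bear on how far each value can be read. They had 65 distinct best hits, and 52 members shared theirs with another member, and whether such sequences are fragments or close copies of 1 gene was not tested. Since only reads with a single place were counted, reads from a stretch that copies share are missing from all of them. The median length was 538.5 bases (150 to 1881), against 433 bases for all sequences. The largest share of bases covered in any library had a median of 79.6% over members with a read, against 79.0% over all. In 21 members it was under 50%, and in 36 it was at least 90%. PAL had 6 of the poorly covered members and the laccases 4. Of the laccases, 15 of 19 carried the annotation terms for the extracellular region and for lignin metabolism, and 17 of 19 PAL sequences that for phenylalanine metabolism. No chromosome positions or sequences are given, since the table's names matched no entry of the peanut gene list used here.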

How the data were processed

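The authors captured poly(A) RNA of each stage on oligo(dT) beads and sequenced 1 library per stage on an Illumina HiSeq instrument. They deposited 1 table with a read count, an RPKM value and the percent of bases covered for each reference sequence and library. Per the deposited description, the read count takes reads with 1 place in 1 gene only, and the deposited RPKM divides it by sequence length and library total. The name of the aligner was not given in the sources used here. RPKM recomputed from the counts deviated from the deposited values by at most 8.42e-09 (relative).

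RPKM was used as deposited. Ratios of RPKM carry 95% exact Clopper-Pearson intervals and levels exact Poisson intervals. Counts past 2 times and medians use log2(RPKM + 1), a scale that understates differences of low sequences. No test was made, because each stage has 1 library. The methods were tested on simulated data.

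Steps were assigned by words in the database description. The results of 1 step are not reported here; its members stay in the counts, medians and sums over all members. Named in each step were the 2 members with the highest mean RPKM and those with the largest rise and fall from S1 to S3 (RPKM of at least 10 in either), and, over all members, the 3 largest rises and falls for S1 against S2 and for S2 against S3. All other members named, among them those listed behind a small count, were chosen after their values were seen. The members and the lists of words (phenylalanine supply, methyl donors, P450 reductase, secondary wall, chalcone and stilbene synthases, green tissue, seed, xylem, dividing cells) were chosen with earlier results of these data known.

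Alternatives were rescaling by the upper quartile or by the median of ratios (over sequences whose RPKM reached 1 in every library), a pseudocount of 0.1, an RPKM of at least 10, at least 10 reads, unigenes only and a length of at least 300 bases. Added after seeing the data were 1 sequence per best hit and at least 50% of bases covered. The work was done in Python 3.11.15 (scipy 1.17.1, numpy 2.4.6, matplotlib 3.10.9, pandas 2.3.3).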

Additional observations from a re-analysis of the deposited data

How the results depend on the processing

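No paired analysis was possible because the 3 libraries are 1 per stage, and for the same reason no library could be left out. Rescaling multiplied every ratio of S2 to S1 by 1.04 (median of ratios) or 1.05 (upper quartile), of S3 to S2 by 0.838 or 0.843, and of S3 to S1 by 0.872 or 0.885. The median log2 ratio of all sequences for S3 to S2 thereby went from 0.18 to 0.00. The members' median for S3 to S2 went from −1.37 to −1.61 under both, and the number highest in S2 from 66 to 69 or 70. With a pseudocount of 0.1, 6 members instead of 3 were at least 2 times higher in S3 than in S2. With an RPKM of at least 10, 4 instead of 7 were lower in S2 than in S1, 6 instead of 10 were higher in S3 than in S1, and the median for S3 to S1 was −0.96 instead of −0.58. With 300 bases or more, 6 were higher in S3 than in S1.

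With unigenes only (57 with a read), 35 of 57 members were lower in S3 than in S2, where it was 58 of 95 before. Lower in S3 than in S1 were 19 of 57, where it was 31 of 95. Of the 57, 10, 39 and 8 were highest in S1, S2 and S3. With 1 sequence per best hit (64), 34 were lower in S3 than in S2, 19 lower in S3 than in S1, and 40 highest in S2. Both settings leave fewer members to count. Among step sums, 13 of 27 ratios moved under the median of ratios and 13 of 27 under the upper quartile, by more than their counting interval, none of them in sign. With unigenes only 11 of 27 moved and with 1 sequence per best hit 5 of 27. On the log2 scale, unigenes only brought PAL from −0.12 to −1.12 (S3 to S1) and from −0.71 to −1.65 (S3 to S2). CAD went from 1.24 to 3.69 (S2 to S1), from −1.31 to −2.94 (S3 to S2) and, with a change of sign, from −0.06 to 0.75 (S3 to S1), its abundant public sequence EZ724086 being left out. Depth limits the members with under 20 reads, whose ratios have wide intervals, and the 5 with none.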
